A study of Mus musculus with 4 samples.

Results

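DNA replication genes are the genes whose products copy the genome in S phase. The 42 genes described here were taken as a fixed list of gene symbols covering origin licensing, the MCM helicase, the GINS complex, the DNA polymerases, the sliding clamp and its loader, nucleotide supply and chromatin assembly. They stand among 23732 genes with a symbol in the count files. Each symbol was matched to its RefSeq transcript IDs, 57 in all, and each gene was represented by the ID with the highest summed count. All 42 had at least 1 ID in the files, and 35 passed the filter of at least 1 CPM (counts scaled to 1000000 reads in transcripts) in both libraries of at least 1 genotype.

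The genes were measured by RNA sequencing of rRNA-depleted total RNA from immortalized mouse dermal fibroblasts (imMDFs). *Tmpo* WT cells carried the genotype Lap2alpha +/+ and *Tmpo* KO cells Lap2alpha -/-, which lack LAP2alpha, a nucleoplasmic partner of lamin A/C. The cells had no treatment, and each genotype had 1 library at passage 34 (replicate 1) and 1 at passage 42 (replicate 2), 4 in all. The sources name 1 immortalized line per genotype, so the genotype and the line cannot be told apart. Nothing says that the replicates were separate cultures beyond their passages, so p-values measure only the spread between these samples. In tests on genotype alone that spread holds the difference between passages 34 and 42, and the rest may be technical.

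As background, replication starts at origins, where the origin recognition complex (ORC) with CDC6 and CDT1 loads the ring of MCM2 to MCM7, and geminin blocks CDT1 until the next cycle. GINS and CDC45 join the ring to form the active helicase, and MCM10 assists its firing. Polymerase alpha with primase lays down primers, polymerase epsilon extends the leading strand and polymerase delta the lagging strand, held on DNA by the PCNA clamp that the RFC complex loads. Many of these genes are transcribed from promoters that the E2F factors bind in late G1, and LAP2alpha with lamin A/C is known to interact with the retinoblastoma protein, which represses E2F targets.

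Letters of the E2F type were found upstream of 8 of the 34 members that a RefSeq promoter table (GRCm38.p6) lists. It holds no promoter for *Gins2*, nor for *Gins1*, *Gins4*, *Gmnn*, *Mcm4*, *Pole*, *Prim2* and *Rfc2*, so these genes were not searched. The letters searched were TTTCCCGC, TTTCGCGC, TTTGCCGC and TTTGGCGC on either strand within 250 bases before the start site, and they were present in 8 (20%) of the 40 windows of the members and in 1.86% of all 32851 windows. CCAAT, the letters of the CCAAT box, were present in 57.5% of the members' windows and in 33.8% of all windows. Such a match is a description of letters, not of binding. The 8 windows are shown because they give the promoter element for which this group of genes is known. The window nearest to the start site is printed for each gene, in the direction of its transcription with the matched letters in capitals.

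*Pola1*, chrX:93632275-93632304 (-), 138 bases before the start: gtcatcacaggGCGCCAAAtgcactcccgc
*Gins3*, chr8:95633507-95633536 (+), 41 bases before the start: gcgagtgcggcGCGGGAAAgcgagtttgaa
*Mcm5*, chr8:75109349-75109378 (+), 149 bases before the start: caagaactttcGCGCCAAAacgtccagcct
*Mcm6*, chr1:128359734-128359763 (-), 47 bases before the start: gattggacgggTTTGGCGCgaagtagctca
*Mcm7*, chr5:138172030-138172059 (-), 165 bases before the start: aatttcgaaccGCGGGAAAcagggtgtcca
*Orc1*, chr4:108579416-108579445 (+), 27 bases before the start: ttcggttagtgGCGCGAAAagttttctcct
*Cdc6*, chr11:98908002-98908031 (+), 138 bases before the start: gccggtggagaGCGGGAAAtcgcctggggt
*Rfc3*, chr5:151651209-151651238 (-), 10 bases before the start: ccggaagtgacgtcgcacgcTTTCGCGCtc

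In the *Mcm5* window the printed match overlaps another on the opposite strand, which starts 153 bases before the start site. *Mcm6* holds a further overlapping pair of matches, at 106 and 110 bases. Of the 8 genes, *Pola1*, *Gins3* and *Mcm5* were lower in both KO libraries than in both WT libraries, whereas the other 5 overlapped between the genotypes. That share, 3 of 8, stands beside 40.0% of the 35 genes tested and 19.9% of all transcripts, and no test of a link to these letters was made.

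The 4 libraries held between 12168433 and 19603812 reads in transcripts, or 31.4% to 36.7% of the reads in each file. The targeted transcript, *Tmpo* NM_011605, was counted 903 times in WT at passage 34 and 1324 times at passage 42, against 6 times in each KO library, as the labels state. Fibroblast markers summed to between 12015 and 16267 CPM over the 4 libraries, with *Pdgfrb* at 0. Within the sum *Thy1* differed, at 315 CPM (WT) and 1292 CPM (KO) at passage 34, and 275 and 771 at passage 42 (edgeR adjusted p 0.00469). The other fibroblast markers tested did not differ between genotypes at an edgeR adjusted p under 0.05. Markers of other cell types summed to between 2.23 and 43.9 CPM per list (keratinocyte, endothelial, leukocyte, melanocyte and muscle), with *Tek* and *Itgam* at 0. Of these markers *Tek*, *Itgam*, *Ptprc*, *Pecam1* and *Acta1* have several transcript IDs, as do the fibroblast markers *Pdgfrb*, *Pdgfra*, *Dcn* and *Fn1*. For such genes low counts do not measure the gene, as explained below for the replication genes.

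Most replication genes were abundant in these dividing cells. Over the 35 genes tested the median of the mean level was 84.5 CPM, against 15.0 CPM for all 13855 transcripts tested. CPM here are normalized with TMM factors, which correct library sizes for composition, and where a pair of values is given for a genotype the first is passage 34 and the second passage 42. Per kb of the longest coding transcript of each gene (GENCODE, NCBIM37), *Pcna* had the highest level, with means of 292 CPM per kb in WT and 229 in KO. The MCM2 to MCM7 subunits, which form a ring with 1 copy of each, lay between 65.2 (*Mcm6*) and 126 (*Mcm5*) CPM per kb in WT. Among genes with a single ID, *Orc1*, the ORC subunit whose level varies with the cell cycle, was the lowest at 6.26 CPM per kb in WT. *Rrm1*, the large subunit of ribonucleotide reductase, stood at 100.2 CPM per kb and *Rrm2*, its small subunit, at 49.1 in WT. *Gins2* was left out of these levels per length because most of its exonic bases overlap another gene, as described below. Shared exonic bases were examined for *Gins2* alone. *Orc1* and the MCM subunit *Mcm7* also overlap annotated genes on the other strand, and their levels were not checked for this.

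**Figure D1:**
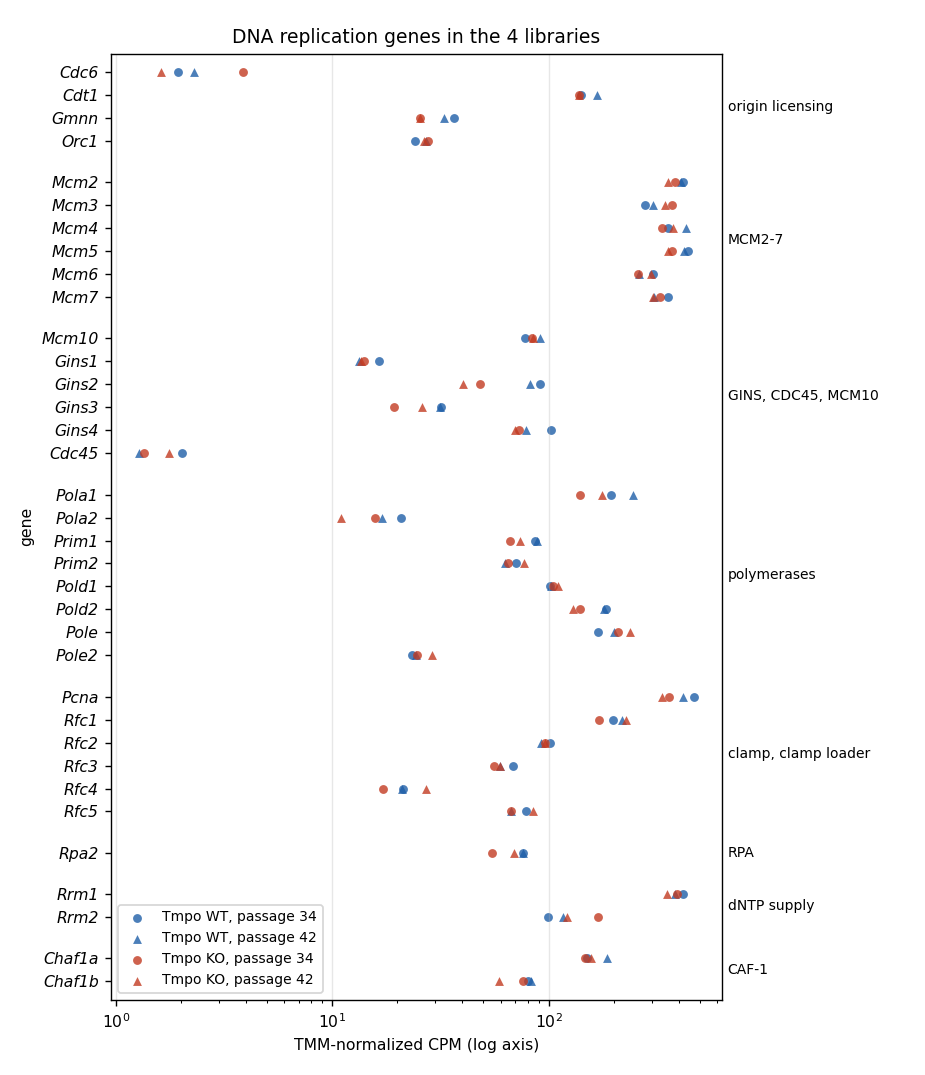
Level of each of the 35 DNA replication genes tested in the 4 libraries, as TMM-normalized CPM on a log axis, grouped by role; circles are passage 34, triangles passage 42, blue is *Tmpo* WT and red *Tmpo* KO. The libraries of most genes lie close together. In 14 genes (40.0%, against 19.9% of all transcripts) both KO libraries lie below both WT libraries, and in 5 (14.3%, against 21.9%) both lie above. *Gins2* is among the 14, with WT at 91.2 and 81.8 CPM and KO at 48.0 and 40.1 CPM.

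Whether a gene could be assessed followed the number of its transcript IDs. The 31 genes with 1 ID had total counts between 1377 and 24675 (median 6626) over the 4 libraries, and all 31 passed the filter. The 11 genes with more than 1 ID had between 0 and 980 (median 24), and only *Gins1*, *Cdc45*, *Cdc6* and *Pola2* passed. Each ID was a feature of its own in the counting, so reads in exons shared by the IDs of a gene were set aside as ambiguous. The values of *Gins1*, *Cdc45*, *Cdc6* and *Pola2* therefore also leave such reads out. Ambiguous reads of every kind, overlaps between different genes included, made up 12.1% to 13.4% of the reads. Across all genes, 63.0% of the 19025 genes with 1 ID had a transcript that passed, against 29.5% of the 4707 genes with more.

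The 7 genes that did not pass were *Orc2*, *Orc6*, *Tyms*, *Tk1*, *Fen1*, *Lig1* and *Rpa1*. *Orc2* and *Orc6*, both ORC subunits, had 0 counts in every library on every ID. Such a value does not measure the gene, since the counts that its IDs share are not in it. For *Tk1*, the salvage thymidine kinase, the WT counts were 10 and 8 and the KO counts 0 and 6 (passages 34 and 42). *Lig1*, the ligase that joins Okazaki fragments, was counted 10 and 16 times in WT against 18 and 15 times in KO. *Tyms*, the thymidylate synthase, and *Fen1*, the flap endonuclease, had 2 counts each in all, and *Rpa1*, the large RPA subunit, had 4. None of the 7 was tested, and these counts do not show whether the genes differed between genotypes.

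**Figure D2:**
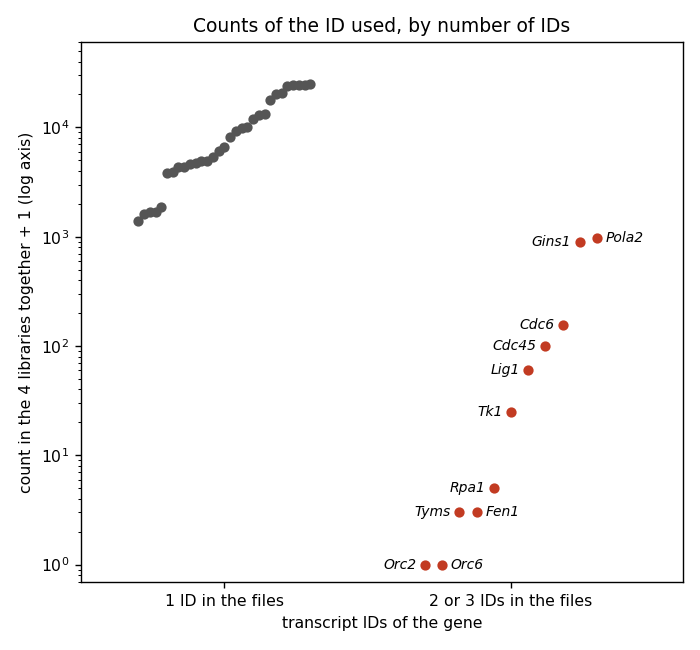
Count of the transcript ID used for each of the 42 genes, summed over the 4 libraries plus 1, on a log axis; genes with 1 ID are in grey at the left and genes with more than 1 in red at the right, each ordered by count. The 31 genes with 1 ID all lie at 1377 counts or more, whereas the 11 others lie at 980 counts or below.

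In *Tmpo* KO cells, 1 of the 35 replication genes tested was called changed, namely *Gins2*, which fell 1.96-fold. Changed means an adjusted p (Benjamini-Hochberg over all 13855 transcripts, edgeR quasi-likelihood test) under 0.05, and 2.75% of all transcripts tested were called, 1.24% as lower and 1.51% as higher. At an unadjusted p under 0.05, 3 genes (*Gins2*, *Pold2* and *Pola1*) differed, or 8.57% of those tested, against 12.8% of all transcripts. No member changed more than 2-fold by the fitted value, which 7.23% of all transcripts did. For 30 of the 35, the 95% interval of the fold change lay within 2-fold in both directions, as it did for 52.3% of all transcripts. The 5 exceptions were *Gins2*, *Gins3*, *Pola2*, *Cdc45* and *Cdc6*. These 2-fold shares were not compared at like counts. The members had a median level of 84.5 CPM against 15.0 CPM for all transcripts, and a median SE of 0.21 against 0.31. The replicate number is also the passage, and with passage as a block 7.88% of all transcripts were called and *Gins2* was again the 1 member called (edgeR adjusted p 1.29e-04). At an unadjusted p under 0.05, 4 members differed in that fit, against 16.9% of all transcripts, with *Rrm2* the addition and *Pola1* at an edgeR adjusted p of 0.0827. In bulk RNA, fewer cells in S phase and less RNA per cell cannot be told apart.

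The remaining differences were small and leaned to lower values in KO. The median log2 fold change was -0.10 over the 35 genes and -0.14 over the 31 with 1 ID, against 0.02 over all transcripts. By the fitted fold change, 25 genes were lower in KO (71.4%, against 48.4% of all transcripts). In 14 genes (40.0%) both KO libraries lay below both WT libraries, which was so for 19.9% of all transcripts. In 5 genes (14.3%) both lay above, against 21.9% of all transcripts. The CPM of the 35 genes together came to 5289 and 5302 in WT at passages 34 and 42, and to 4854 and 4894 in KO. The members are not replicates of one another, and no test of the list was made.

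**Figure D3:**
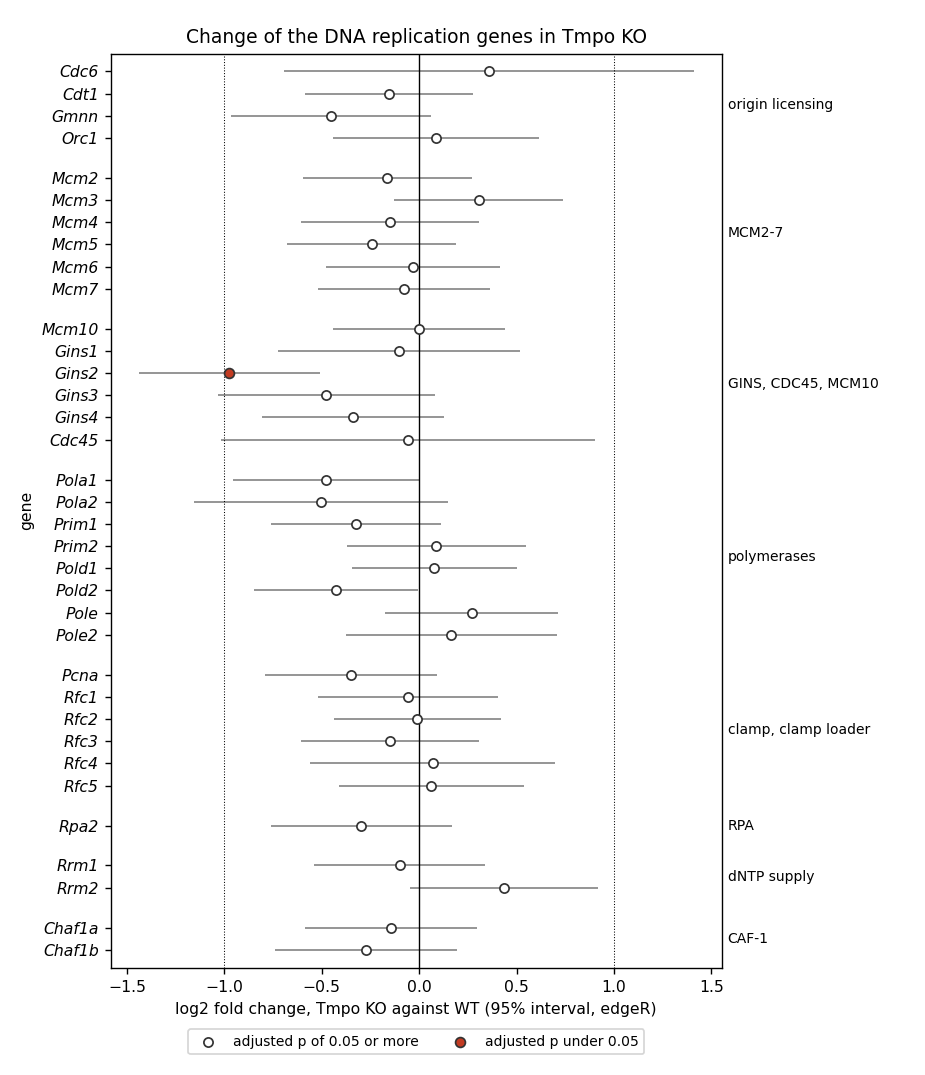
Log2 fold change of *Tmpo* KO against WT for the 35 DNA replication genes tested, with its 95% interval from edgeR, grouped by role; dotted lines mark 2-fold. *Gins2*, filled, is the gene with an adjusted p under 0.05, and most other intervals cross 0 and lie within the dotted lines.

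The GINS complex, the tetramer of SLD5 (*Gins4*), PSF1 (*Gins1*), PSF2 (*Gins2*) and PSF3 (*Gins3*) that activates the MCM helicase, had the 1 member called. Its 4 subunits were all lower by the fitted value (median log2 fold change -0.41, and -0.22 with *Cdc45* and *Mcm10*), and in 3 of them both KO libraries lay below both WT libraries, against 19.9% of all transcripts and 40.0% of the 35 genes. *Gins2* was at 91.2 CPM (WT) and 48.0 CPM (KO) at passage 34, and at 81.8 CPM (WT) and 40.1 CPM (KO) at passage 42. Both KO libraries lay well under both WT libraries, with means of 86.5 ± 6.62 CPM in WT and 44.1 ± 5.59 in KO (SD, n = 2 each). Its log2 fold change was -0.97 ± 0.21 (SE), with a 95% interval from -1.44 to -0.51 and an edgeR adjusted p of 0.0339. Without the WT library of passage 34 its adjusted p was 0.278, and without that of passage 42 it was 0.0566, at log2 fold changes of -0.89 and -1.06.

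*Gins2* lies at chr8:123102533-123113204 on the minus strand (mm9), where the annotation places *Gse1* on the other strand. The last exons of both share 2758 bases, from 123102533 to 123105290, or 67.3% of the exonic bases of *Gins2*. These are GENCODE exons, and whether the RefSeq transcripts counted share the same bases was not examined. The libraries mark strand, but no source used here states whether the counting was stranded. Without strand, reads in bases that both counted genes hold would be set aside as ambiguous. Where only *Gins2* holds the bases, reads of *Gse1* could be counted for it. The counts of *Gins2* were 1083 (WT) and 779 (KO) at passage 34 and 1282 (WT) and 772 (KO) at passage 42. *Gse1* has 3 IDs in the files, so its own counts do not measure it. The part of this overlap in the difference was not tested. In all, 9 of the 35 genes overlap an annotated gene on the other strand and 4 one on the same strand. *Mcm7*, *Pola1* and *Pole* are among both.

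Of the other GINS subunits, *Gins3* (chr8:98157459-98168959, plus strand) and *Gins4* (chr8:24337082-24348140, minus strand) lie on the same chromosome as *Gins2*. *Gins3* was at 31.9 CPM (WT) and 19.4 CPM (KO) at passage 34, and at 31.4 and 26.1 at passage 42. *Gins4* was at 102 and 72.7 CPM at passage 34 and at 78.3 and 70.1 at passage 42. Both were lower in each KO library than in either WT library, yet neither passed the test, with log2 fold changes of -0.48 ± 0.25 (SE, edgeR adjusted p 0.503) and -0.34 ± 0.21 (SE, edgeR adjusted p 0.600). *Gins1* overlapped between genotypes, with 16.4 and 13.3 CPM in WT and 14.1 and 13.6 in KO. Whether *Gins2* differed more than the other subunits was not tested.

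Neither of the other helicase partners passed the test. *Mcm10* had 78.1 and 91.0 CPM in WT and 84.1 and 84.9 in KO, a log2 fold change of -0.00 with an interval from -0.44 to 0.44. *Cdc45*, counted on an ID with 100 reads over the 4 libraries, was at 2.02 and 1.28 CPM in WT and at 1.36 and 1.77 in KO. Its interval, from -1.02 to 0.90, was among the widest of the 35.

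Of the MCM2 to MCM7 ring, which unwinds the DNA, none of the 6 genes passed the test, and their log2 fold changes ran from -0.24 (*Mcm5*) to 0.31 (*Mcm3*) with a median of -0.11. All 6 intervals lay within 2-fold. *Mcm5* was at 439 and 422 CPM in WT and at 372 and 355 in KO. *Mcm2* was at 419 and 410.3 CPM in WT and at 385 and 355 in KO, so that both genes were lower in each KO library. *Mcm3* stood on the other side, at 278 and 302 CPM in WT and 372 and 345 in KO (log2 fold change 0.31 ± 0.20 SE, edgeR adjusted p 0.611). The 3 remaining subunits overlapped between genotypes, with means of 394 CPM in WT and 355 in KO for *Mcm4*, 284 and 278 for *Mcm6*, and 331 and 314 for *Mcm7*.

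In origin licensing, 4 of 6 genes were assessed and none passed. *Gmnn*, which encodes geminin, was at 36.6 and 33.0 CPM in WT and at 25.6 and 25.3 in KO, with a log2 fold change of -0.45 ± 0.23 (SE, edgeR adjusted p 0.484). Its target *Cdt1* was at 141 and 167 CPM in WT and at 139 and 138 in KO, lower in both KO libraries, with little margin at passage 34. *Orc1* overlapped between genotypes, at 24.3 and 27.1 CPM in WT and 27.9 and 26.6 in KO. *Cdc6*, the loader that works with ORC, was at 1.94 and 2.30 CPM in WT and at 3.88 and 1.61 in KO, on 153 reads over the 4 libraries, and its interval ran from -0.69 to 1.41.

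None of the 8 polymerase and primase genes passed the test, with a median log2 fold change of -0.12 and values from -0.50 (*Pola2*) to 0.27 (*Pole*). *Pola1*, the catalytic subunit of polymerase alpha, was at 194 and 246 CPM in WT and at 139 and 177 in KO (log2 fold change -0.48 ± 0.22 SE, unadjusted p 0.0493 and adjusted p 0.389 by edgeR). Its partner *Pola2* was at 20.8 and 17.0 CPM in WT and at 15.7 and 11.0 in KO (-0.50 ± 0.30 SE, edgeR adjusted p 0.564). *Prim1*, the primase subunit that makes the RNA primer, was at 86.6 and 88.6 CPM in WT and at 66.3 and 73.7 in KO (-0.32 ± 0.20 SE, edgeR adjusted p 0.589). These 3 members of the primer-making complex were lower in each KO library than in either WT library. For *Pola2*, reads that its 2 IDs share are not in these values. *Prim2*, the fourth member, overlapped, with 70.7 and 62.8 CPM in WT and 64.7 and 77.2 in KO.

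*Pold2*, the accessory subunit of polymerase delta, was at 184 and 179 CPM in WT and at 140.2 and 130.0 in KO, a log2 fold change of -0.43 ± 0.19 (SE, unadjusted p 0.0467 and adjusted p 0.381 by edgeR). *Pold1*, the catalytic subunit of the same enzyme, was at 101 and 102 CPM in WT and at 104 and 111 in KO. Here both KO libraries were higher, by a log2 fold change of 0.08 ± 0.19 (SE). The polymerase epsilon subunits were also higher in both KO libraries, without passing the test. *Pole*, the catalytic subunit, was at 169 and 201 CPM in WT and at 209 and 238 in KO (0.27 ± 0.20 SE, edgeR adjusted p 0.690), and *Pole2* at 23.5 and 24.3 in WT and 24.5 and 29.0 in KO. Whether the complexes differed from one another was not tested.

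*Pcna*, the clamp, was at 468 and 418 CPM in WT and at 361 and 334 in KO, below WT in both libraries (log2 fold change -0.35 ± 0.20 SE, interval -0.79 to 0.09, edgeR adjusted p 0.546). The 5 RFC genes, which encode its loader, overlapped between genotypes without exception. Their log2 fold changes ran from -0.15 (*Rfc3*) to 0.07 (*Rfc4*), and all intervals lay within 2-fold. Of the single-strand binding protein RPA, *Rpa2* was counted, at 76.2 and 76.0 CPM in WT and 54.7 and 69.1 in KO (-0.30 ± 0.21 SE, edgeR adjusted p 0.663).

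In nucleotide supply, *Rrm2* had the largest fitted increase among the 35 genes. It was at 99.3 and 116 CPM in WT and at 169 and 122 in KO, with a log2 fold change of 0.43 ± 0.22 (SE, edgeR adjusted p 0.467). Most of that difference came from passage 34, at which the log2 CPM difference was 0.77, against 0.07 at passage 42. *Rrm1*, its partner in ribonucleotide reductase, overlapped between genotypes, at 417 and 384 CPM in WT and 394 and 353 in KO. Both subunits of chromatin assembly factor 1 that were listed, which deposit histones behind the fork, were lower by the fitted value. *Chaf1b* was at 79.9 and 83.0 CPM in WT and at 75.9 and 58.9 in KO (-0.27 ± 0.21 SE, edgeR adjusted p 0.705), and *Chaf1a* overlapped, with means of 168 CPM in WT and 152 in KO.

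Several of these uncalled differences depended on single libraries, although none of those in the next sentences was called with any library left out. The log2 fold change of *Gins3* ran from -0.28 (without the KO library of passage 34) to -0.71 (without that of passage 42), and that of *Gins4* from -0.13 (without the WT library of passage 34) to -0.53 (without that of passage 42). Leaving out the KO library of passage 34 gave *Pola2* -0.79, *Chaf1b* -0.47, *Rpa2* -0.14, *Rrm2* 0.18 and *Pola1* -0.31. Without the KO library of passage 42 the values were -0.27, -0.10, -0.48, 0.65 and -0.67 in the same order. *Pole* ran from 0.15 (without the WT library of passage 34) to 0.39 (without that of passage 42).

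The differences were then set side by side by passage, with 1 library per genotype at each and therefore no test. They are log2 CPM differences of KO minus WT with a prior count of 2. At passage 34 they ranged from -0.92 (*Gins2*) to 0.96 (*Cdc6*), with a median of -0.21. At passage 42 they ranged from -1.03 (*Gins2*) to 0.43 (*Cdc45*), with a median of -0.12. Over all transcripts the median was 0.01 at either passage. Of the 35 genes, 18 were lower in KO at both passages, 5 higher at both and 12 of opposite sign, which compares with 29.0%, 30.5% and 40.4% of all transcripts. *Gins2* had the lowest value of the 35 at both passages, and the next lowest at passage 34, *Gins3* at -0.72, was at -0.26 at passage 42.

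**Figure D4:**
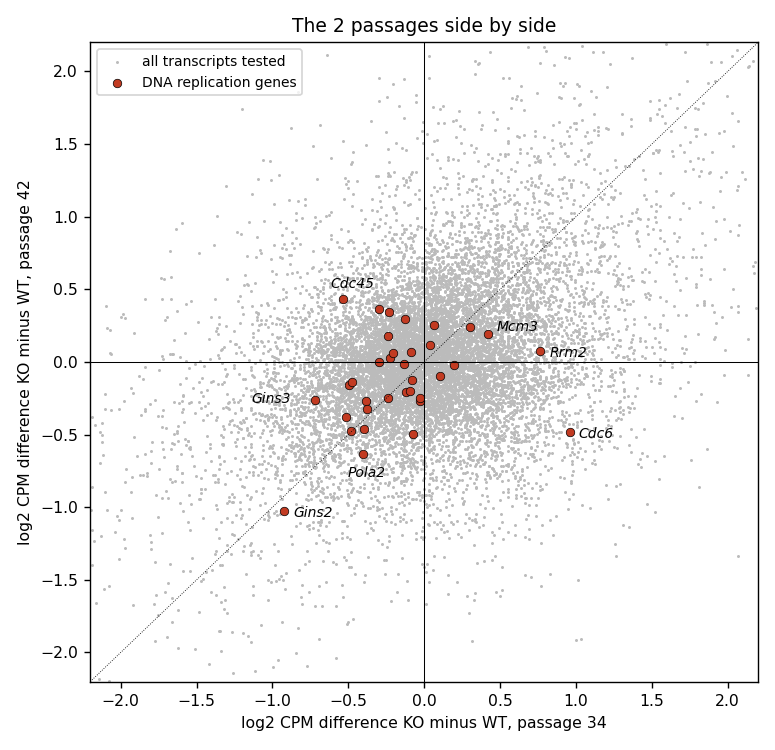
Log2 CPM difference of *Tmpo* KO minus WT at passage 34 (x axis) and passage 42 (y axis), for all transcripts tested (grey) and the 35 DNA replication genes (red); the dotted line marks equal differences, and 300 of 13855 transcripts lie outside the axes. *Gins2* is at -0.92 and -1.03, and most other replication genes lie near the centre.

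Between passages 42 and 34, with genotype as a block in the model, none of the 35 genes was called by edgeR, against 2.31% of all transcripts (1.77% as higher and 0.541% as lower at passage 42). None had an unadjusted p under 0.05 either, by edgeR or DESeq2, which 11.6% of all transcripts had by edgeR. The fitted log2 fold changes ran from -0.56 (*Cdc6*) to 0.35 (*Pola1*), with a median of -0.01, and 33 of 35 intervals lay within 2-fold, as did those of 61.9% of all transcripts. The exceptions were *Cdc6* and *Cdc45*, both with few counts. Here too the members and all transcripts were not compared at like counts. *Pola1* had the smallest p, at 194 and 246 CPM in WT and 139 and 177 in KO (0.35 ± 0.18 SE, unadjusted p 0.0550 and adjusted p 0.448 by edgeR). It was higher at passage 42 in both genotypes. *Gins2* differed little between passages (-0.21 ± 0.21 SE, edgeR adjusted p 0.809).

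Other genes of DNA replication were measured beside these. A companion list of 50 further genes (regulators of firing, other polymerase subunits, fork protection, nucleotide metabolism and histone chaperones) had 43 tested and a median log2 fold change of -0.11 in KO. On genotype alone none was called by edgeR or DESeq2, against 2.75% of all transcripts by edgeR. An unadjusted p under 0.05 was found for 1 gene by either tool (2.33%, against 12.8% of all transcripts by edgeR). With passage as a block, edgeR called 1 of the 43 (2.33%), against 7.88% of all transcripts. In that fit 4 (9.3%) had an unadjusted p under 0.05, against 16.9% of all transcripts. *Rnaseh2c*, an RNase H2 subunit, was at -0.48 (edgeR adjusted p 0.426), *Pclaf*, a PCNA-binding factor, at -0.36 (adjusted p 0.515) and *Asf1b*, a histone chaperone, at -0.38 (adjusted p 0.564). In 15 of the 43 (34.9%), these 3 included, both KO libraries lay below both WT libraries, and in 6 (14%) both lay above, against 19.9% and 21.9% of all transcripts.

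A list of 25 mitosis genes, set beside them as another group of proliferation genes, had 19 tested and a median of -0.12. None was called by edgeR or DESeq2, and 1, *Kif11*, the motor that separates the spindle poles, had an unadjusted p under 0.05 by either tool (log2 fold change -0.50, edgeR adjusted p 0.303). That is 5.26% by edgeR, against 12.8% of all transcripts. With passage as a block, edgeR called none, and 3 (15.8%) had an unadjusted p under 0.05, against 16.9% of all transcripts. *Ndc80*, a kinetochore protein, was at -0.47 (edgeR adjusted p 0.393), *Ccnb1*, cyclin B1, at -0.38 (adjusted p 0.566) and *Birc5*, survivin, at -0.41 (adjusted p 0.705). Between passages none of either list was called, with medians of 0.11 for the companion list and -0.06 for the mitosis list. By edgeR, 3 genes of each list had an unadjusted p under 0.05 between passages. That was 6.98% of the companion list and 15.8% of the mitosis list, against 11.6% of all transcripts. By DESeq2, 1 and 0 genes did.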

How the data were processed

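The deposited files hold raw counts per RefSeq transcript ID. The authors trimmed adapters with cutadapt, used TopHat2 version 2.0.9 for mapping to mm9 and htseq-count for reads with a mapping quality above 20. Other versions, and whether counting was stranded, were not given in the sources used here. Of 32757 IDs, 32308 were matched to a symbol through a RefSeq table of GRCm38.p6. Reads given to no transcript stayed out of library sizes and tests; between 49.9% and 56.5% of reads lay in no feature. TMM factors (0.979 to 1.03), the quasi-likelihood test and Benjamini-Hochberg adjustment were computed with edgeR 4.0.16 in R 4.3.3, on genotype alone or, for passages, genotype and passage. Standard errors came from the fold change and the root of F. An exact permutation test of 2 against 2 libraries cannot give a two-sided p under 0.333. Per the labels a replicate number is also a passage. Deviations of libraries sharing it correlated at 0.175, in 2 pairs, and no source pairs them beyond the passage.

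The members, both other gene lists and the role groups were chosen with earlier results of these data known. Every member is named; full values were given for genes called in either contrast and then by the smallest p up to 14 genes, and fold changes for up to 4 genes of each other list by the smallest p. The values of 1 gene of the companion list are not reported here. Alternatives were RLE size factors, library totals, DESeq2 1.42.0, other filters, counts summed per symbol, a replicate block, no genotype term and each library left out; members with 1 ID alone were added after seeing the data. The procedure was tested on simulated data. Python 3.11.15 with pandas 2.3.3 and matplotlib 3.10.9 was used for tables and plots.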

Additional observations from a re-analysis of the deposited data

Results flagged for a closer look

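For 12 of the 35 DNA replication genes the log2 CPM difference of KO minus WT had opposite signs at passages 34 and 42, as it did for 40.4% of all transcripts tested. Each passage has 1 library per genotype, so the difference between passages was not tested. The widest gaps were those of genes with few counts, *Cdc6* (0.96 at passage 34 and -0.48 at passage 42) and *Cdc45* (-0.53 and 0.43). In the clamp loader, *Rfc4* was at -0.30 and 0.37, *Rfc5* at -0.23 and 0.34, *Rfc1* at -0.21 and 0.06, *Rfc2* at -0.08 and 0.07, and *Rfc3* at -0.30 and 0.00. The primase subunit *Prim2* was at -0.13 and 0.30, *Mcm6* at -0.24 and 0.18, and *Gins1* at -0.22 and 0.03. As in *Cdc6*, KO was higher at passage 34 and lower at passage 42 in *Mcm10* (0.11 and -0.10) and *Orc1* (0.20 and -0.02).

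Some members also had counts on transcript IDs that the comparisons did not use. The highest count in a library was 110 for *Pola2* NM_001164057, 12 for *Cdc6* NM_011799, 9 for *Gins1* NM_001163476, and 7 and 4 for *Lig1* NM_001083188 and NM_001199310. For *Pola2* the second ID was counted 84 (WT) and 109 (KO) times at passage 34, and 110 (WT) and 82 (KO) times at passage 42. These counts are not scaled to depth, which was 12168433 (WT) and 15786136 (KO) reads in transcripts at passage 34. At passage 42 it was 15677378 (WT) and 19603812 (KO), so the counts do not give a direction by themselves. With both IDs summed the log2 fold change of *Pola2* was -0.48 (edgeR adjusted p 0.552).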

How the results depend on the processing

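*Gins2* was the replication gene called under RLE size factors, library totals, DESeq2, both other filters and counts summed per symbol, with adjusted p between 0.00445 and 0.0371. With each library left out, a lone library being assumed to vary like the other genotype, 0 to 1 members were called, the 0 without either WT library, and the log2 fold change of *Gins2* ran from -1.11 to -0.85. Its adjusted p was then 0.278 at -0.89 without the WT library of passage 34 and 0.0566 at -1.06 without that of passage 42. The transcripts called, 381, ranged from 156 to 1199 with a library left out and were 740 with no filter on low counts. The members' median ranged from -0.17 to -0.11 with a library left out. With a replicate block, which is the passage, 1092 transcripts and still 1 member, *Gins2*, were called (adjusted p 1.29e-04). No scaling moved the median of all transcripts by over 0.1.

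For the passages, 320 transcripts were called, 48 with DESeq2, 145 at 1 CPM in all 4 libraries and 0 with no genotype term, and no member was called in any of these. The members' median was 0.027 with no filter, -0.028 with counts summed per symbol and from -0.02 to 0.00 with a library left out; no test is possible then. The passage difference of *Mcm3*, 0.0062, had the other sign under RLE size factors (-0.012), library totals (-0.010), DESeq2 (-0.012), 1 CPM in all 4 libraries (-0.0088), counts summed per symbol (-0.00059) and no genotype term (-0.0056). The cause was not tested for any of these changes. DESeq2 gave no adjusted p for *Pola2* between passages. All 31 members with 1 ID passed the filter, against 4 of the 11 with several IDs in the same libraries. Reads that several IDs share are not in these counts, and how much of the difference they make up was not tested. A floor of 3 counts equals 0.153 to 0.247 CPM per library.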
